A study of Mus musculus with 4 samples.

Results

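The platelet-derived growth factor (PDGF) genes were examined in the frontonasal prominence (FNP) of the mouse embryo, the facial tissue that forms the nose and snout. They were found by symbol in the table of autosomal genes and are the 4 ligand genes Pdgfa, Pdgfb, Pdgfc and Pdgfd and the 2 receptor genes Pdgfra and Pdgfrb, 6 of 33708 rows. The study sequenced mRNA from the FNPs of 4 FVB/NJ embryos at E10.5, all with 29 somites, to ask how gene expression in this tissue differs when the chromatin protein SMCHD1 carries a missense change. The WT group held 2 Smchd1+/+ embryos, 1 labelled female and 1 male, and the MD43 group held 2 males of the genotype Smchd1MommeD43/MommeD43. MommeD43 is a chemically induced allele recovered from a mutagenesis screen, so the MD43 embryos carry it in every cell. WT replicate 2 and MD43 replicate 2 shared a mother, while both replicate 1 embryos came from other mothers, so that sex and litter were not balanced between the genotypes. Each dissected prominence was a mixture of cell types.

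PDGF ligands are secreted dimers that bind receptor tyrosine kinases at the cell surface. PDGF-AA and PDGF-CC act mainly through PDGFRα, whereas PDGF-BB and PDGF-DD act through PDGFRβ, with PDGF-BB also binding PDGFRα. In the embryonic face, Pdgfa and Pdgfc are made largely by epithelia and Pdgfra by the neural crest mesenchyme beneath them, and loss of PDGFRα signalling causes facial clefting. PDGF-B from endothelium recruits mural cells, which carry PDGFRβ, to growing vessels.

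The table gave 1 log2 RPKM value (reads scaled for the length of a transcript and the size of a library, on a log2 scale) per genotype, with both libraries merged. The differences below were therefore not tested here and carry no error from replicates, and each is a description of these 4 libraries. From the value, the 2 library counts of a genotype could be recovered as their product, and reads are given as its square root, the geometric mean per library. The error given is the smallest standard error (SE) that read counting allows, and it leaves out variation between embryos. In these bulk libraries, fewer cells of a type and less RNA per cell cannot be told apart. The implied depth was 22328791 reads per library in MD43 and 16055881 in WT, and 15382 genes that reached 10 reads in either genotype were used for comparison. Reads could be recovered only for rows matched to the gene annotation, so unmatched rows were not used.

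Promoter sequences are shown for the 2 ligand genes with the highest levels and for their receptor, because these 3 genes had the largest differences for their counting error. Of the 6 members, 4 had an entry in the RefSeq promoter table (build GRCm38.p6). Each sequence ends at the start of the RefSeq transcript or, for Pdgfa, at the nearest exon of the gene, and runs 5′ to 3′ on the strand of the gene with CpG dinucleotides in capitals. Pdgfa is chr5:138995038-138995194 on the minus strand, Pdgfc is chr3:81036166-81036415 on the plus strand and Pdgfra is chr5:75152001-75152250 on the plus strand.
Pdgfa: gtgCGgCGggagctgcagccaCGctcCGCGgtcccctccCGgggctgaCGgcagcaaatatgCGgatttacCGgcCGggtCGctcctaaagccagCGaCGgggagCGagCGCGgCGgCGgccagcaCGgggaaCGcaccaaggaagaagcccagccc
Pdgfc: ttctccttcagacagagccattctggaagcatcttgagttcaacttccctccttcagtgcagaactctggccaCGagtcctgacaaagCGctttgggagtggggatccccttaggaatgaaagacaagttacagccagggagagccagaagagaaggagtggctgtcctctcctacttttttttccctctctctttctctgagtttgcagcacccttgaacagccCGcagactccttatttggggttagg
Pdgfra: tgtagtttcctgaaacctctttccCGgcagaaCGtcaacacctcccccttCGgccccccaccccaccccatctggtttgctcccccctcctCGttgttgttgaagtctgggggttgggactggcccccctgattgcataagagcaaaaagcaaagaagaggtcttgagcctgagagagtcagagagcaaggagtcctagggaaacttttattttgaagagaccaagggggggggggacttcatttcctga
The Pdgfa sequence held 20 CpG in 157 bases, against 3 and 4 CpG in the 250 bases of Pdgfc and Pdgfra. Over the full 250 bases before the start, the GC content was 72.4% for Pdgfa, 50.8% for Pdgfc and 54.4% for Pdgfra, against a median of 52.4% over 32851 windows. The window of a second RefSeq start of Pdgfa, not printed, had 66.4%. The GC box GGGCGG, searched on both strands, occurred 2 times in the first Pdgfa window, 1 time in the second and in none of the Pdgfc, Pdgfra and Pdgfd windows, and 32.7% of all windows held it. The 157 printed Pdgfa bases hold no whole GC box, and the rest of that window overlaps Pdgfa exons. The Pdgfc, Pdgfra and Pdgfd windows overlap no exon of their own gene. The Pdgfd window held the TATA box TATAAA, found in 12.4% of all windows. Pdgfa and Pdgfc, which had nearly the same difference between genotypes, thus differed widely in the base composition of these windows.

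In both genotypes the transcripts ranked in the same broad order per length, with Pdgfa and Pdgfc highest, both receptors in the middle, and Pdgfb and Pdgfd lowest. Pdgfa and Pdgfc together made up 93.6% of the summed ligand RPKM in WT and 95.6% in MD43. The log2 level of Pdgfa exceeded that of Pdgfc by 0.29 ± 0.05 (counting SE) in WT and by 0.31 ± 0.04 in MD43. With the length of all exons, used throughout, the gap between the receptors (Pdgfra minus Pdgfrb) was 0.12 ± 0.06 in WT and -0.04 ± 0.06 in MD43. At that length they were not separated beyond counting error. Pdgfb exceeded Pdgfd by 0.50 ± 0.21 in WT and by 0.19 ± 0.18 in MD43, with only the WT gap beyond its 95% counting interval. These gaps depend on the transcript length used. With the length of the transcript of the longest coding part, Pdgfra exceeded Pdgfrb by 0.66 in WT and by 0.50 in MD43, beyond counting error. At that length the gap of Pdgfb minus Pdgfd was 0.19 in WT, within counting error, and -0.12 in MD43. Neither the closeness of the receptors nor the order of Pdgfb and Pdgfd is therefore settled.

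**Figure D1:**
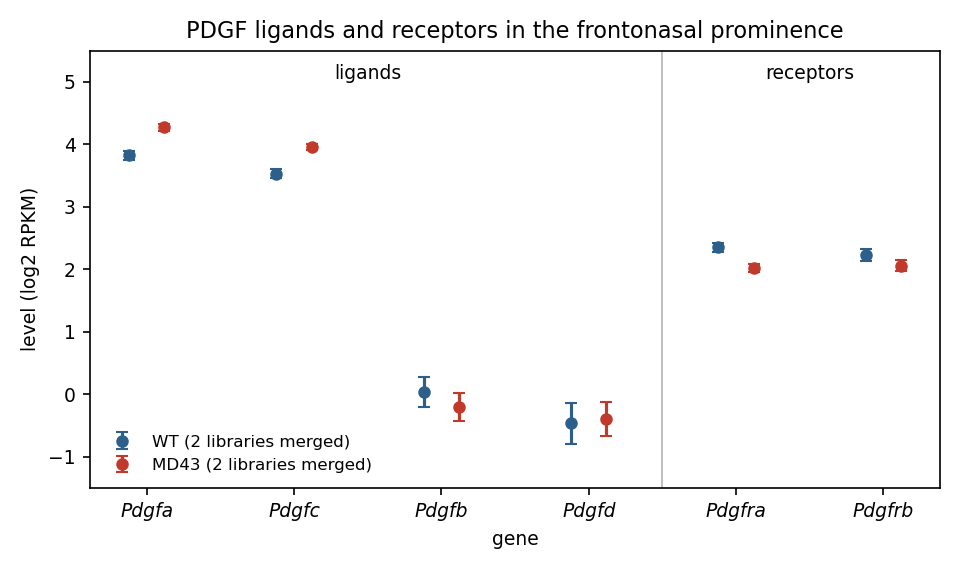
Levels of the 4 PDGF ligand and 2 PDGF receptor genes (x axis) in log2 RPKM (y axis) for WT (blue) and MD43 (red), each point being the merged value of 2 libraries. Bars are 95% counting intervals and do not include variation between embryos. Pdgfa and Pdgfc sit higher in MD43 and Pdgfra lower, without overlap of the bars.

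Pdgfa (ENSMUSG00000025856, GRCm38 chr5:138976014-138997370, minus strand), which encodes the PDGF-A chain, had 1349 reads and a level of 4.28 log2 RPKM in MD43, and 708 reads and 3.82 in WT. It was higher in MD43 by 0.45 ± 0.05 (counting SE), or 1.37-fold. Pdgfc (ENSMUSG00000028019, chr3:81036416-81214040, plus strand), which encodes a chain that is secreted in latent form and released by proteolysis, had 1774 reads and a level of 3.96 in MD43, and 946 reads and 3.53 in WT. It was higher in MD43 by 0.43 ± 0.04, or 1.35-fold. The 2 ligands of PDGFRα therefore had a higher value in MD43 to almost the same degree. Among all used genes, 6.22% were at least as far higher in MD43 as Pdgfa and 6.71% as Pdgfc. Small differences are commoner among well expressed genes, and of the genes within 0.5 log2 units of the same mean level the shares were 0.982% of 2240 genes and 1.48% of 2507 genes.

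Pdgfra (ENSMUSG00000029231, chr5:75152292-75198215, plus strand), the receptor for both of these ligands, had 911 reads and a level of 2.02 log2 RPKM in MD43, and 822 reads and 2.35 in WT. It was lower in MD43 by 0.33 ± 0.05 on the log2 scale, or 1.26-fold, and 13.7% of used genes, or 8.61% of 2440 genes near its level, were as far lower. The direction was thus opposite to that of its ligands. The log2 gap between Pdgfa and Pdgfra was 1.47 in WT and 2.25 in MD43, a difference of 0.78 ± 0.07 (counting SE). For Pdgfc and Pdgfra the gap was 1.18 in WT and 1.94 in MD43, a difference of 0.76 ± 0.06. Summed over all members, ligand RPKM was 27.5 in WT and 36.6 in MD43 while receptor RPKM was 9.81 and 8.24. The ratio of ligand to receptor transcripts was thus 2.80 in WT and 4.44 in MD43. The gaps and this ratio rest on the length of all exons. With the transcript of the longest coding part, the gap between Pdgfa and Pdgfra was 1.93 in WT and 2.71 in MD43. The ratio was not computed at that length.

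Pdgfrb (ENSMUSG00000024620, chr18:61045150-61085061, plus strand), the receptor of mural cells and other mesenchyme, had 510 reads and a level of 2.06 log2 RPKM in MD43, and 414 reads and 2.23 in WT. It was lower in MD43 by 0.17 ± 0.07 on the log2 scale, or 1.13-fold, and 24.0% of used genes were as far lower. Pdgfb (ENSMUSG00000000489, chr15:79995874-80014977, minus strand), which encodes the PDGF-B chain, had 80.3 reads and a level of -0.21 in MD43, and 68.6 reads and 0.04 in WT. Its difference was -0.25 ± 0.17. Pdgfd (ENSMUSG00000032006, chr9:6168584-6378850, plus strand), which encodes the other latent chain, had 53.2 reads and a level of -0.40 in MD43, and 36.7 reads and -0.47 in WT, and its difference was 0.06 ± 0.22. At this depth a difference for Pdgfb or Pdgfd could not be told from counting error. The 95% counting intervals of the log2 differences ran from -0.58 to 0.08 for Pdgfb and from -0.37 to 0.49 for Pdgfd.

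None of the 6 members passed a 1.5-fold difference, against 10.7% of used genes in either direction. That share is raised by genes with few reads. With at least 50 reads in a genotype, as all 6 members had, 1.51% of genes were past it higher and 3.18% lower. The 95% counting interval of the difference left out 0 for 4 members, against 50.4% of used genes, so that passing this limit was common in the table. Of these, Pdgfa and Pdgfc were higher in MD43, as were 26.2% of used genes by this rule, and Pdgfra and Pdgfrb were lower, as were 24.2%.

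**Figure D2:**
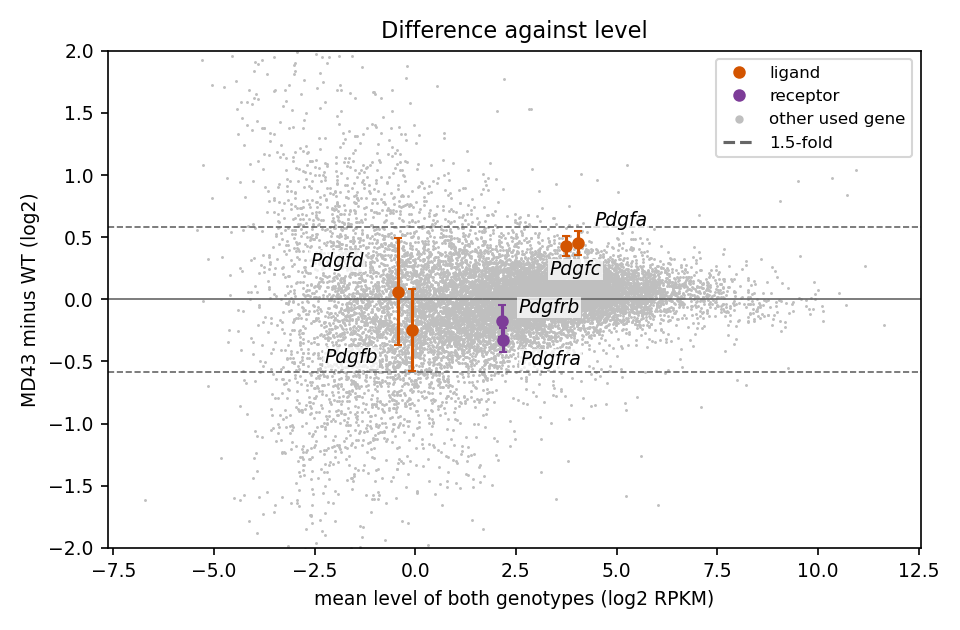
MD43 minus WT on the log2 scale (y axis) against the mean level of both genotypes in log2 RPKM (x axis) for 15382 used genes (grey), with ligands in orange and receptors in purple. Bars are 95% counting intervals, dashed lines mark 1.5-fold, and 102 genes lie outside the y axis. Pdgfa and Pdgfc sit at the upper edge of the genes of their level and both receptors below 0.

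The spread between libraries could be approached through those products that are the product of 2 primes, since these fix both counts, although not which embryo each came from. Among products from 10000 to 250000, there were 103 such genes in MD43 and 124 in WT. The higher count was a median of 1.56 times the lower in MD43 and 1.44 times in WT, which includes unequal depth. The ratios varied from gene to gene with a robust standard deviation of 0.24 in MD43 and 0.33 in WT on the log2 scale. For a difference between the means of 2 libraries per genotype, this corresponds to a scale of 0.20, and since the ratios carry no sign it is a lower estimate. The differences of Pdgfa, Pdgfc, Pdgfra and Pdgfb were larger than this scale and those of Pdgfrb and Pdgfd were smaller. The scale describes genes with 100 to 500 reads (geometric mean) per library. Pdgfa, Pdgfc and Pdgfra had more reads than this and Pdgfb and Pdgfd fewer, so it is not a test of any member.

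For 4 members the products of both genotypes were fixed, and the pairs of library counts that could give them were listed up to a 3-fold ratio. The Pdgfra products and the MD43 product of Pdgfrb exceeded 250000, the limit up to which whole numbers were checked. Scaled up from the products below that limit, the error of the product was 0.11 for Pdgfrb in MD43 and, for Pdgfra, 0.34 in MD43 and 0.29 in WT, so that the Pdgfra pairs are less certain than the others. To set counts side by side, each was divided by the implied depth of its library, taken from the geometric mean depth and the median ratio above, with the higher count placed in the deeper library. Pdgfrb allowed 1 pair in each genotype, 313 and 831 reads in MD43 and 286 and 599 reads in WT. Per 1000000 reads this gave 17.5 and 29.8 in MD43 and 21.4 and 31.0 in WT, and the genotypes overlapped. The Pdgfrb ratio of 1.41 on the log2 scale in MD43 was reached by 4.85% of the genes with fixed counts, so that its libraries stood farther apart than those of most genes. Ratios above 3-fold, which were not listed for members, were held by 1.94% of these genes in MD43 and 3.23% in WT.

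Pdgfra allowed 3 pairs in each genotype. In MD43 they were 544 and 1524, 762 and 1088, or 816 and 1016 reads. In WT they were 553 and 1222, 611 and 1106, or 658 and 1027 reads. Of the 9 ways to combine them, 4 left the MD43 libraries wholly below the WT libraries per 1000000 reads and 5 gave overlap, or 4 of 36 without overlap when either count could come from either library, so the table does not settle whether the embryos of both genotypes were separated for Pdgfra. Pdgfb allowed 52 and 124 or 62 and 104 reads in MD43 and 47 and 100 or 50 and 94 reads in WT. The genotypes were apart in 1 of 4 combinations, or in 1 of 16 when either count could come from either library. For Pdgfd, with 35 and 81 or 45 and 63 reads in MD43, the genotypes overlapped in all 6 combinations. The MD43 products of Pdgfa and Pdgfc were too large to be fixed to a whole number, so this could not be done for them. How often the genotypes were apart by this rule over all genes was not determined, so these counts have no background.

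**Figure D3:**
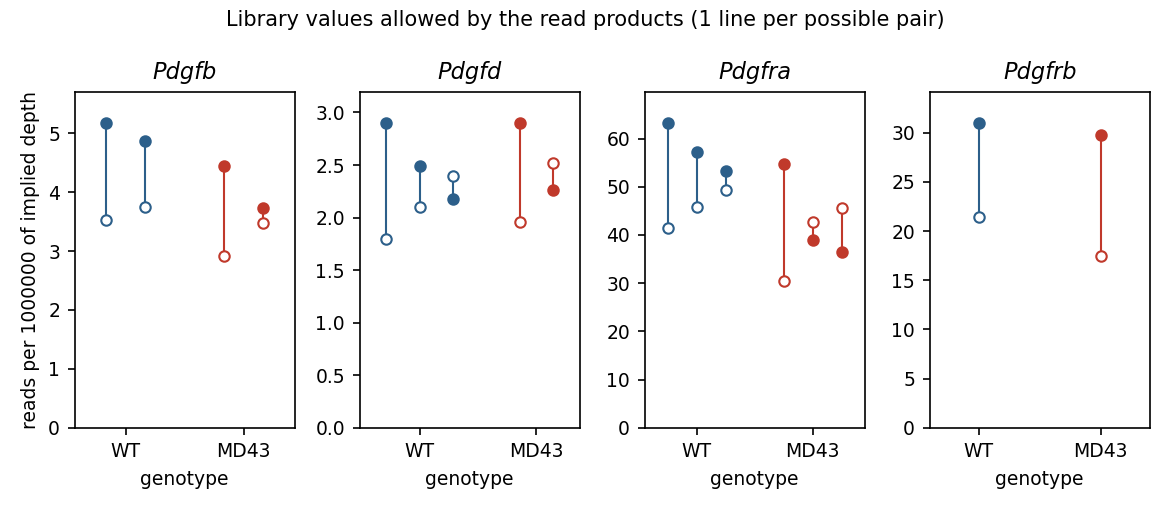
Library values allowed by the read products, in reads per 1000000 of implied depth (y axis), for Pdgfb, Pdgfd, Pdgfra and Pdgfrb by genotype (x axis). Each line is 1 possible pair, with the lower count in the shallower library (open) and the higher count in the deeper (filled). Pdgfrb has 1 pair per genotype and these overlap, while for Pdgfra 4 of 9 combinations do not overlap.

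The genes through which PDGF acts were described by 7 lists holding 78 genes, of which 74 were used. Past 1.5-fold, 1 was higher in MD43 and 3 were lower, against 4.24% of all used genes higher and 6.44% lower, and the median log2 difference was 0.02, against 0.01 for all used genes. The signalling machinery thus lay close to the table as a whole.

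The proteases that process PDGF chains were on the higher side, with a median of 0.19 over 7 genes. St14, which encodes the epithelial protease matriptase, was higher in MD43 by 0.89 ± 0.08 (545 and 211 reads) and was the 1 member past 1.5-fold, and Pcsk5, a proprotein convertase, was lowest at -0.05. Genes for ligand-binding proteins and co-receptors had a median of -0.15, from Pdgfrl, a gene related to the receptors, at -0.35 to Lrp1, a co-receptor of PDGFRβ, at 0.13. None of these 5 genes passed 1.5-fold. The 8 genes of heparan sulphate synthesis, which makes the matrix sugar that retains PDGF, had a median of 0.08 with none past 1.5-fold, from Ext1 at -0.03 to Ndst1 at 0.28.

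Within the cell, the adapters and enzymes that dock on the active receptors had a median of -0.01 over 20 used genes. They ranged from Stat5b, a transcription factor activated by phosphorylation, at -0.31 to Ptpn11, the phosphatase SHP2, at 0.28. The 16 downstream kinases and GTPases had a median of -0.03, from Prkca, a protein kinase C gene, at -0.54 to Mtor at 0.25. The 9 attenuators of the receptors had a median of 0.02, from the ubiquitin ligase gene Cblb at -0.11 to Lrig1, a membrane protein that lowers receptor tyrosine kinase levels, at 0.29. No gene of these 3 lists passed 1.5-fold.

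Genes that PDGF is known to induce in cultured fibroblasts had a median of 0.04 over 9 used genes of 12, and their range was the widest of the 7 lists. Egr1, an immediate early transcription factor, had a level of -1.31 log2 RPKM in MD43 and -0.25 in WT and was lower by 1.06 ± 0.21 on the log2 scale (40.2 and 60.4 reads). Ier3, an early response gene, was lower by 1.52 ± 0.22 (32.0 and 66.1 reads). Fosl1, an AP-1 subunit, was lower by 0.66 ± 0.24 (33.6 and 38.2 reads). The other used members did not pass 1.5-fold, among them Fos at 0.20 ± 0.42 and Myc at 0.04, and Srf, the transcription factor of serum response, was highest at 0.33. All 3 lower genes had fewer than 100 reads in each genotype. With 1 RPKM added before the logarithm 1 gene of the list remained past 1.5-fold, and with at least 50 reads 2 did.

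Receptors related to the PDGF receptors in structure, with their ligands, had a median of 0.03 over 12 used genes. Past 1.5-fold, 1 gene was higher and 2 were lower, against 4.24% of all used genes higher and 6.44% lower. The median of this list was -0.13 with at least 50 reads or with no filter. Vegfa, the ligand of the vascular receptors, had a level of 3.92 log2 RPKM in MD43 and 4.78 in WT and was lower by 0.86 ± 0.04 on the log2 scale (1452 and 1891 reads). Flt1, a VEGF receptor, was lower by 0.90 ± 0.14 (97.1 and 131 reads). The Flt1 products allowed 60 and 157 reads in MD43 and either 79 and 216 or 108 and 158 reads in WT. Per 1000000 reads the genotypes were apart in both combinations with the higher count in the deeper library. They were apart in 2 of 8 when either count could come from either library. For Kdr, another VEGF receptor, which had a difference of -0.33 ± 0.08, the genotypes were apart in 4 of 9 combinations. With either count from either library, Kdr was apart in 4 of 36. The share over all genes was not determined. Flt3l, the ligand of FLT3, was higher at 0.91 ± 0.54 with 13.1 and 5 reads. The differences of Vegfa and Flt1 were thus larger than that of any PDGF member.

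**Figure D4:**
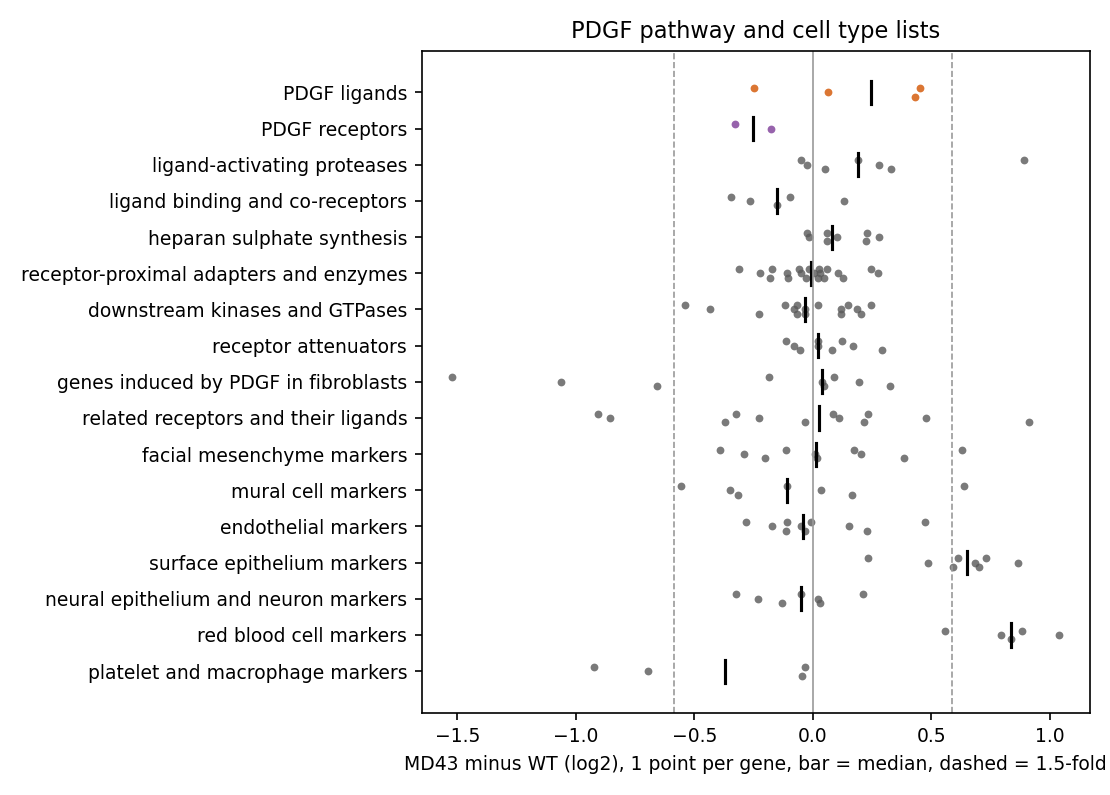
MD43 minus WT on the log2 scale (x axis) for each used gene of the PDGF members, the pathway lists and the cell type lists (y axis), with bars at the medians and dashed lines at 1.5-fold. The pathway lists centre near 0, while surface epithelium and red blood cell markers lie to the right with medians of 0.65 and 0.84.

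Cell type markers were set beside the members because the ligands and receptors are made by different cells. The labelled tissue expressed all 10 facial mesenchyme markers, the lowest of them at 1.91 log2 RPKM (Pax3 in WT), and their median difference was 0.01. Twist1, a mesenchymal transcription factor, was lowest at -0.39 ± 0.05. Their summed RPKM was 150 in MD43 and 147 in WT. All 8 surface epithelium markers were higher in MD43, with a median of 0.65, from Trp63 at 0.23 to Cldn6 at 0.87. Of these markers 6 were past 1.5-fold, against 4.24% of all used genes higher and 1.51% with at least 50 reads. The summed RPKM of the surface epithelium markers was 188 in MD43 and 120 in WT. Pdgfa and Pdgfc, at 0.45 and 0.43, were thus higher alongside these epithelial markers, and the part of the epithelial markers in the ligand difference was not tested.

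Red blood cell markers were also higher in 5 of 5 used genes, with a median of 0.84 and the embryonic globin gene Hbb-bh1 highest at 1.04. Of these 4 were past 1.5-fold, against 4.24% of all used genes higher. The globin genes took 0.40% of reads in MD43 and 0.213% in WT, and without them the differences of the 6 members moved by less than 0.01. The 7 used mural cell markers, relevant to Pdgfrb, had a median of -0.11, from Tagln at -0.56 to Des at 0.64, the 1 gene past 1.5-fold. Of the mural list, Rgs5 (4.24 and 3.74 reads in MD43 and WT), Abcc9 and Kcnj8 were below 10 reads in both genotypes. Other markers of the list had more, with 3525 and 2259 reads for Notch3 and 265 and 237 for Mcam. Anpep had 148 and 104 reads, and Cspg4 had 21.2 and 19.4. Endothelial markers, relevant to Pdgfb, had a median of -0.04 over 10 genes, from Egfl7 at -0.28 to Plvap at 0.47, none past 1.5-fold.

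Platelet and macrophage markers, the former also relevant to Pdgfb because platelets store PDGF, had a median of -0.37 over 4 used genes. Pf4, a platelet marker, was lower by 0.92 ± 0.21 (39.5 and 53.8 reads), and Ptprc was lower by 0.70 ± 0.46 on few reads. These 2 genes were past 1.5-fold, against 6.44% of all used genes lower. The other used platelet marker, Itga2b, had a difference of -0.05 ± 0.22 (50.8 and 37.7 reads). A lower value of the platelet markers thus rested on Pf4 alone. Csf1r was highest at -0.03. The 7 used neural markers had a median of -0.05 with none past 1.5-fold and Stmn2 lowest at -0.32. Sox2 lay at 6.22 log2 RPKM in MD43 and 6.35 in WT. The part of these cell types in the values of the members was not tested.

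Both higher ligand genes have an overlapping antisense gene, and whether the authors counted reads by strand is not stated in the sources used here. The antisense gene 6330403L08Rik starts inside the Pdgfa sequence printed above and runs the other way, with 18 bases between its start and that of a Pdgfa transcript. It shares 813 exon bases with longer Pdgfa transcripts, 26.1% of the exon bases of Pdgfa. Its difference was 0.44, from 258 and 137 reads, nearly that of Pdgfa. Gm16000 shares 147 exon bases with Pdgfc, and its difference was 0.68, from 88.4 and 39.8 reads. When all reads of the antisense gene were subtracted, the difference was 0.46 for Pdgfa and 0.42 for Pdgfc. The antisense genes that overlap Pdgfra in exons, Gm42802 and Gm42803, had at most 1.34 reads.

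The genomic neighbours of each member held differences in both directions, and a shift shared with the members was not tested. Next to Pdgfa, the secreted kinase gene Fam20c had a difference of 0.22 and A430033K04Rik one of -0.48 on one side, with Prkar1b at -0.06 and Gm15672 at 0.73 on the other. Next to Pdgfc, Glrb had -0.20, Gria2 -0.86, Ctso -0.57 and Gucy1b1 0.17, all of them with at most 114 reads. Pdgfra lies in a cluster of related receptor genes, in which Kit had 0.22 ± 0.05 and Kdr -0.33 ± 0.08, with Gsx2 at -0.33 ± 0.16 and Chic2 at -0.04 ± 0.05 on the other side. Pdgfrb has its relative Csf1r at a distance of 15537 bases, and Csf1r had -0.03 ± 0.09, Hmgxb3 0.26, Camk2a -0.34 and Cdx1 0.73 on few reads. Around Pdgfb the values were -0.04 for Cbx7, 0.52 for Apobec3, -0.15 for Rpl3 and -0.14 for Syngr1. Around Pdgfd they were 0.04 for Gria4, -0.11 for Msantd4, -0.03 for Dync2h1 and 0.03 for Dcun1d5.

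By distance in the plane of both log2 RPKM values, the used genes nearest to Pdgfra were Snai2, a transcription factor of neural crest and mesenchyme, at 0.02 log2 units, and Dusp3, a phosphatase, at 0.03. Those nearest to Pdgfrb were A930004D18Rik at 0.0035 and Dzip1, a gene of primary cilia, at 0.01. The receptors were 0.12 log2 units apart, and 76 used genes lay nearer to Pdgfra than Pdgfrb did. This likeness rests on 2 values per gene, so that many genes share it. It also rests on the length of all exons, and with the transcript of the longest coding part the receptors lay farther apart.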

How the data were processed

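RNA was measured in 4 FNP libraries, 2 WT and 2 MD43, grouped by the sample labels. Total RNA (100 ng) went into stranded poly(A) libraries. The authors trimmed reads with Trim Galore (0.4.4), mapped them with HISAT2 (2.0.5) to GRCm38.p6 and quantified them in SeqMonk, and they deposited log2 RPKM values in 1 merged column per genotype. They also deposited the FDR (q-value) of their test in SeqMonk, a log fold change and a mean, and none of these was used here.

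The table was joined to GENCODE M21 on symbol and coordinates, and 33101 of 33708 rows matched. A log2 RPKM value plus the log2 exon length in kb, set against the value of genes without reads (0.9 reads assumed per library), gave the read counts of both libraries multiplied together. Of the products between 1000 and 250000, 99.7% in MD43 and 99.6% in WT were within 0.1 of a whole number. The recovery was also run on data simulated with the same exon lengths, averaging and 0.9 reads. That run could not show whether the deposited values were made in this way. Counting intervals and errors cover counting error only. Differences are MD43 minus WT on the log2 RPKM scale with no pseudocount.

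The members and lists were chosen with earlier results of these data known. Genes named are all members, the highest and lowest used gene of each list, list genes past 1.5-fold where at most 5 were, the nearest 2 used genes on each side of a member and the 2 genes nearest to each receptor in level. Genes shown beyond these (Fos, Myc, Ier2, Itga2b, Sox2, Pax3, the antisense genes, and the mural markers named for their reads) were added after their values were seen. Some list genes that this rule names are not reported here. The prime products, the antisense subtraction and the removal of globin reads were likewise chosen after seeing the data. A planned protein comparison was not run because no protein sequences were used here. Scripts ran in Python 3.11.15 with numpy 2.4.6, pandas 2.3.3 and sympy 1.14.0.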

Additional observations from a re-analysis of the deposited data

How the results depend on the processing

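The log2 differences of all 6 members kept their direction and moved by less than their 95% counting interval when 0.1 or 1 RPKM was added before the logarithm, when values were centred on the median of all used genes, under a correction for GC content and length, and after removal of globin reads. Pdgfd, at 0.06, moved the most in proportion, to 0.18 after the GC and length correction, and Pdgfb went from -0.25 to -0.12 with a pseudocount of 1 RPKM. Gaps between genes depended on the length behind the RPKM. With the transcript of the longest coding part, chosen after seeing the data, the gap of Pdgfra minus Pdgfrb in MD43 turned from -0.04 to 0.50 and in WT went from 0.12 to 0.66, and Pdgfa minus Pdgfc went from 0.31 to 0.79 in MD43 and from 0.29 to 0.77 in WT. Pdgfb minus Pdgfd turned from 0.19 to -0.12 in MD43 and went from 0.50 to 0.19 in WT. List counts and medians were labelled as moved or not moved, and not moved allowed limited changes. They were not moved in 42 of 48 values with at least 50 reads and in 45 without a filter. With a pseudocount of 1 RPKM 40 were not moved, at 2-fold 38, and under centring all 48. Among these, the surface epithelium markers past 1.5-fold went from 6 to 4 with a pseudocount of 1 RPKM. The lower PDGF-induced genes went from 3 to 4 without a filter. At least 50 reads moved the platelet and macrophage median from -0.37 to -0.05, and a pseudocount of 1 RPKM moved it to -0.02. The median of the related receptors turned from 0.03 to -0.13 with at least 50 reads or no filter, and with a pseudocount of 1 RPKM their count past 1.5-fold went from 1 to 0 higher and from 2 to 1 lower. The median of the PDGF-induced genes turned from 0.04 to -0.07 without a filter, and their 3 lower genes became 1 with a pseudocount of 1 RPKM and 2 with at least 50 reads. No paired analysis was possible because both libraries of each genotype are merged in the table, and for the same reason the planned fits without single replicates and with DESeq2 were not run. The 2 libraries per genotype limit every difference.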
